A study of Homo sapiens with 6 samples.

Results

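Keratins are the proteins of the intermediate filaments of epithelial cells. A filament is built from pairs of an acidic type I and a basic type II chain, so a cell needs both types. KRT8 (type II) with KRT18 (type I) is the founding pair of simple and luminal epithelium, with KRT19 and KRT7 added in ducts, whereas KRT5 with KRT14 marks basal cells and KRT15 is a further type I keratin of basal layers. Pathologists use these proteins to tell luminal from basal breast cells. The 10 keratin genes described here were KRT7, KRT8, KRT80, KRT81 and KRT86 of type II and KRT10, KRT13, KRT15, KRT18 and KRT19 of type I, 5 of each, among 55 protein-coding keratin genes and 60656 genes in the count table. They were listed by name with the abemaciclib and DMSO values of these same libraries already known. Their values are therefore given as a description, and the calls they received in the fit across all genes support nothing.

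RNA came from parental ZR-75-1 cells, a human breast cancer line that carries the oestrogen receptor, kept in DMSO as the solvent control or in 500 nM abemaciclib, an inhibitor of CDK4 and CDK6, for 4 days. Each group had 3 libraries. The study states that its RNA sequencing of this line with abemaciclib and fulvestrant was performed once, with 3 independent biological replicates. Whether this covers these 4-day libraries is not stated, and the spread is taken here as that of 1 line in 1 experiment. The study asked what transcription follows when Rb is activated by CDK4/6 inhibition. The libraries were made with a 3′ mRNA kit, in which 1 count is 1 read from near a transcript end, whatever the length of the transcript. The study describes no removal of duplicate reads for its RNA sequencing, so counts may include copies made in amplification. Levels of different genes can be set side by side only as far as reads of similar transcripts were counted under their own gene. How reads that map to several genes were treated is not given, and KRT18 and KRT8 have more close relatives than KRT19. The libraries held 3317860 to 4013156 counts on genes, and levels are given in CPM, in which each library is brought to the same total with TMM factors. At 0 counts, a level of up to 0.748 to 0.904 CPM remained possible, counting error only.

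The labelled cell type was checked against its markers. All 12 luminal markers, none of them a keratin, passed the filter on low counts, with a summed level of 7498 to 7705 CPM with DMSO and 12184 to 13552 CPM with abemaciclib. The sums do not stand for each marker. TFF1 alone had means of 622.4 and 3511 CPM. PGR and SPDEF were lower in every abemaciclib library, and the groups of GATA3, FOXA1 and EPCAM overlapped. The 12 basal or myoepithelial markers, of which 6 are keratins, summed to 13.3 to 29.4 CPM with DMSO and 8.47 to 12.2 CPM with abemaciclib, and KRT5, KRT14, KRT6A, KRT6B, TP63 and CNN1 had 0 counts in every library. Of these 6 keratins, 4 were at 0, KRT17 had 5, 0 and 5 counts with DMSO and 0 with abemaciclib, and KRT16 had 4 counts in a single DMSO library. The basal type in this set of keratins thus rested on KRT15 alone, and whether its counts mark basal cells was not tested. Mesenchymal markers summed to 35.8 to 49.9 CPM over all 6 libraries. Most of this came from CDH2, with means of 31.9 CPM with DMSO and 24.7 CPM with abemaciclib, and from COL1A1, with 13.1 and 12.5 CPM. Both are named here after their values were seen. VIM was at 0. Immune markers summed to at most 1.19 CPM, with PTPRC at 0.

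Whether reads of one keratin could be counted under another depends on how alike the transcripts are near their 3′ ends. The stretches below were read from the GENCODE v44 transcripts on GRCh38 and show, for 3 pairs of close relatives, 100 bases in which both line up without a gap. They are shown for the likeness of the pair, and not all of them lie in the last 500 bases, where reads of a 3′ library start. Capitals mark the bases that differ within a pair. The first pair is KRT18 (chromosome 12, 52948871 to 52952906, plus strand, bases 1245 to 1344 of a transcript of 1413 bases) and its processed pseudogene KRT18P8 (chromosome 18, 9678248 to 9679493, minus strand), which differ at 4 bases.
KRT18: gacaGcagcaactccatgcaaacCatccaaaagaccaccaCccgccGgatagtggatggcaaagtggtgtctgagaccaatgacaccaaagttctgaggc
KRT18P8: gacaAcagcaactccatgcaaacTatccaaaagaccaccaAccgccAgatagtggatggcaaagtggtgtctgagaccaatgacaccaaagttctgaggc
KRT15 (chromosome 17, 41513745 to 41522529, minus strand) and KRT13 (chromosome 17, 41500981 to 41505705, minus strand) differ at 8 bases in the coding sequence for the end of the rod, the central helical part of the protein, at bases 1215 to 1314 of 1712 in KRT15 and 1211 to 1310 of 1714 in KRT13.
KRT15: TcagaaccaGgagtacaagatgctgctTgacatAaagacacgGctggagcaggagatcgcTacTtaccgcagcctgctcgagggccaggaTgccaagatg
KRT13: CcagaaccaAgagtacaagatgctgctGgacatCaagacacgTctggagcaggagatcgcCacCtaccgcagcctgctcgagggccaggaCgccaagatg
The hair keratins KRT81 (chromosome 12, 52285913 to 52291534, minus strand) and KRT86 (chromosome 12, 52249300 to 52309163, plus strand), whose whole coding sequences were 90.9% identical, differ at 17 bases from the end of the rod onwards. These bases, 1294 to 1393 of 1929 in KRT81 and 1433 to 1532 of 2247 in KRT86, lie before the last 500 of either transcript, and within its last 500 bases KRT86 aligned to no other keratin.
KRT81: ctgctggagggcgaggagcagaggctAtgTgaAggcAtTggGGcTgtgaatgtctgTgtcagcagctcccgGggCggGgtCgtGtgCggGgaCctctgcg
KRT86: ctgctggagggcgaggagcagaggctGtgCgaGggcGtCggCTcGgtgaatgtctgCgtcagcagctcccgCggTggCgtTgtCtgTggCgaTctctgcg

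Across the last 500 bases of each transcript, 7 of the 10 keratins shared no window of 100 bases exactly with a transcript of another gene. The exceptions were KRT13 with 236 of 401 windows, all in an exon of the antisense RNA ENSG00000229732, KRT7 with 37 windows in its antisense RNA KRT7-AS, and KRT8 with 5 windows in the pseudogene KRT8P3. At a looser cut, alignments of at least 100 bases at 90% identity, KRT18 matched 42 other genes, KRT8 matched 20, KRT7 matched 3 and KRT19 matched 1. The table listed 67 pseudogenes of KRT18, of which 14 had counts, and their sum was 128, 157 and 140 counts with DMSO and 125, 144 and 118 with abemaciclib, between 5.10% and 7.42% of the counts of KRT18 itself. KRT18P8 alone held 89, 103 and 87 counts and then 88, 101 and 97, levels that overlapped between the groups, unlike those of KRT18. The 51 pseudogenes of KRT8 held 17 counts in all and the 5 of KRT19 held 0. KRT7-AS was at 0 in every library. The gene models of KRT7 and KRT86 share 2887 bases on the same strand, but no exon of KRT86 lies over the last 500 bases of the KRT7 transcript.

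Of the 10 keratins, 8 had enough counts for the fit across all genes, and KRT13 and KRT86 did not. By edgeR's quasi-likelihood test with an adjusted P under 0.05, 2 (KRT15 and KRT19) were called higher, where 12.5% of all 10863 genes tested were, and 2 (KRT18 and KRT81) were called lower, where 13.3% were. The abemaciclib libraries were all above the DMSO libraries for 2 of the 8, where this held for 19.1% of all genes, and all below for 3, where it held for 20.1%. The median log2 fold change was −0.02 over the 8 keratins and 0.00 over all genes tested. Since the keratins were chosen on this same comparison, and KRT15 passed the filter through its abemaciclib libraries, nothing is read from these counts. The plot of levels by library and the plot of fold changes give the values behind them.

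**Figure D1:**
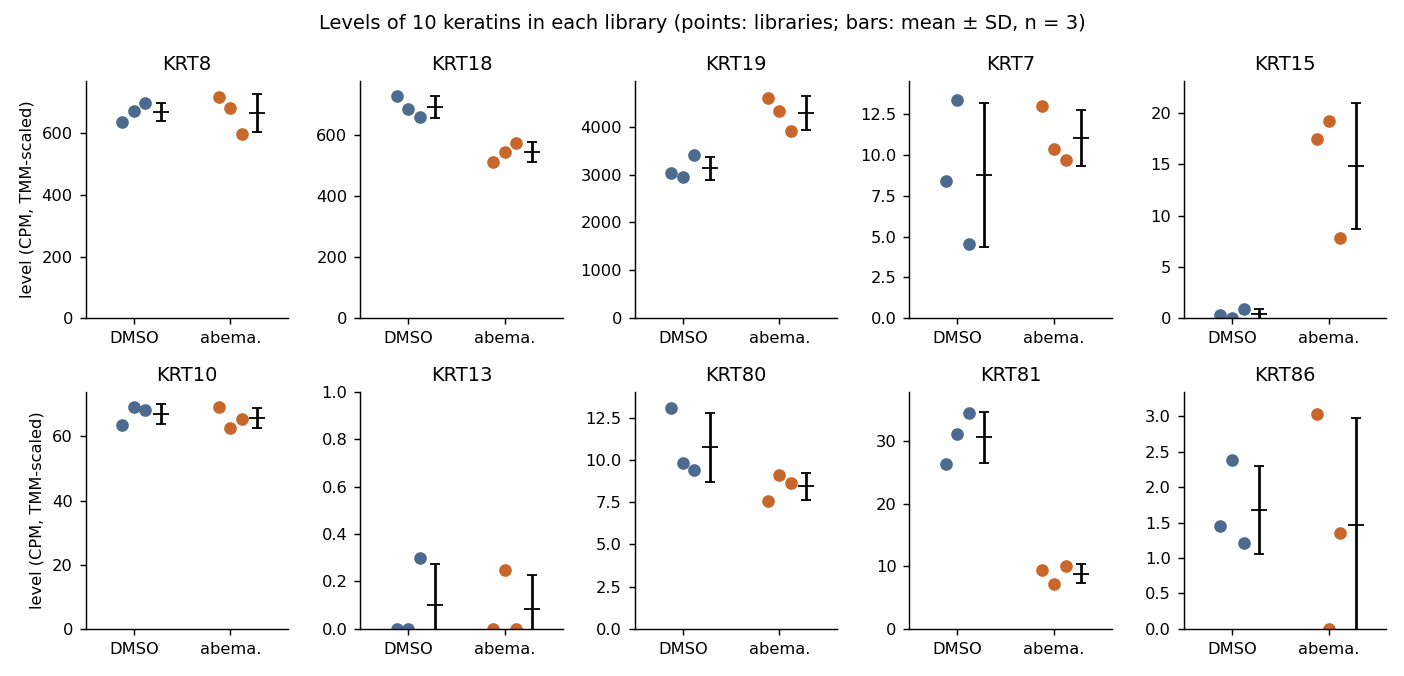
Level of each of the 10 keratins in CPM (y axis, starting at 0, a separate scale for each gene) in the 3 DMSO and 3 abemaciclib libraries, replicates 1 to 3 from left to right within a group. Points are libraries and bars are the mean ± SD. KRT19 and KRT15 lie higher and KRT18, KRT80 and KRT81 lower in every abemaciclib library, and the groups of KRT7, KRT8, KRT10, KRT13 and KRT86 overlap.

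**Figure D2:**
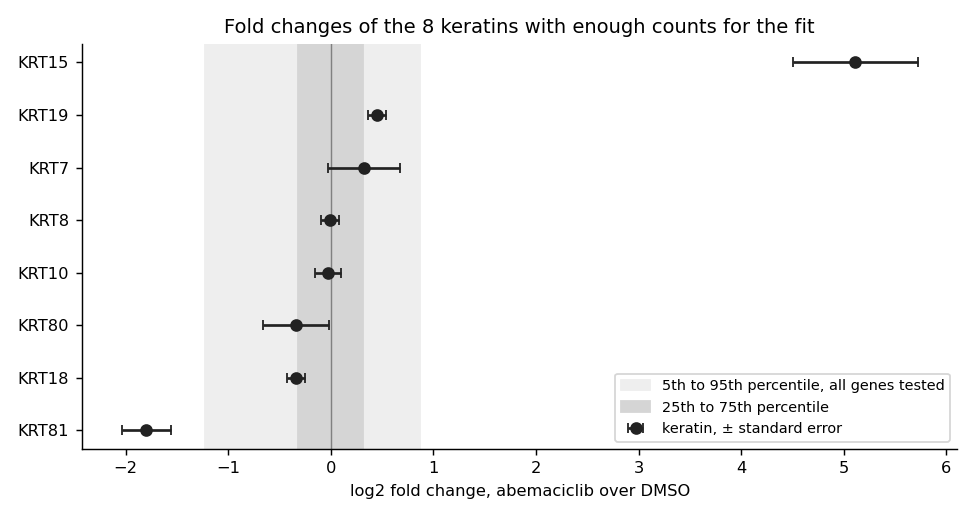
Log2 fold change of abemaciclib over DMSO (x axis) for the 8 keratins in the fit, with bars of 1 standard error. The grey bands hold the middle of all genes tested, from −1.23 to 0.87 and from −0.32 to 0.31. KRT15 at 5.11 and KRT81 at −1.80 lie outside both bands.

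KRT19, which lacks the tail domain of other keratins, was the most abundant keratin in every library. It had 3035, 2957 and 3400 CPM with DMSO and 4604, 4330 and 3905 CPM with abemaciclib. The lowest abemaciclib library was above the highest DMSO library. Its log2 fold change was 0.45 (standard error 0.09), from counts of 9955 to 17551 per library, and it lay between 0.40 and 0.51 under every alternative setting tried. The annotated KRT19 pseudogenes had no counts.

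KRT18, the type I partner of KRT8, went the other way. It had 727.4, 683.2 and 657.6 CPM with DMSO and 509.8, 544.5 and 573.9 CPM with abemaciclib. The groups did not overlap. The log2 fold change was −0.34 (standard error 0.09), a level 0.79 times that of the control, and it lay between −0.39 and −0.30 under every alternative, and at −0.34 again with the counts of its pseudogenes added. KRT8 had 636.6, 673.4 and 697.6 CPM with DMSO and 717.0, 681.2 and 597.4 CPM with abemaciclib. Both the highest and the lowest of these 6 values came from abemaciclib libraries. The log2 fold change of KRT8 was −0.01 (standard error 0.09), and its sign turned when DMSO replicate 3 (0.02) or abemaciclib replicate 3 (0.06) was left out. KRT8 and KRT18 lie head to head on opposite strands of chromosome 12 with 1084 bases of their gene models in common, at the 5′ ends of both and so away from the ends that were sequenced.

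These 3 genes made up 97.1% to 98.1% of all keratin counts in each library. All keratins together took 0.448%, 0.450% and 0.485% of the counts with DMSO and 0.588%, 0.572% and 0.503% with abemaciclib, ranges that did not overlap. The summed keratin level was 4611 ± 232.3 CPM with DMSO and 5599 ± 388.7 CPM with abemaciclib (SD, n = 3). In bulk RNA, a different number of transcripts per cell cannot be told apart from a different share of cells that express the gene. The share of KRT19 among keratin counts was 66.56% to 69.72% with DMSO and 75.36% to 77.37% with abemaciclib, that of KRT18 was 13.49% to 16.12% and then 8.57% to 11.08%, and that of KRT8 was 14.10% to 15.16% and then 11.53% to 12.05%. KRT8 was thus a smaller share of the keratins in every abemaciclib library, while its own level overlapped between the groups.

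The balance of the chain types followed from the same values. The log2 ratio of summed type II over summed type I counts was −2.48, −2.34 and −2.47 with DMSO and −2.79, −2.81 and −2.86 with abemaciclib, without overlap. The group means were −2.43 ± 0.07 and −2.82 ± 0.03 (SD, n = 3), a difference of −0.39, which amounts to 5.39 ± 0.27 and 7.07 ± 0.17 type I counts for each type II count. Within the founding pair, KRT8 had 0.88, 0.99 and 1.06 counts per KRT18 count with DMSO and 1.41, 1.25 and 1.04 with abemaciclib. Here the lowest abemaciclib library fell inside the DMSO range. KRT19 had 4.17, 4.33 and 5.17 counts per KRT18 count with DMSO and 9.03, 7.95 and 6.80 with abemaciclib, without overlap. Read counts of this kind do not measure the amount of protein. The shares and ratios also depend on how reads alike between KRT18 or KRT8 and their relatives were counted, which is not known.

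**Figure D3:**
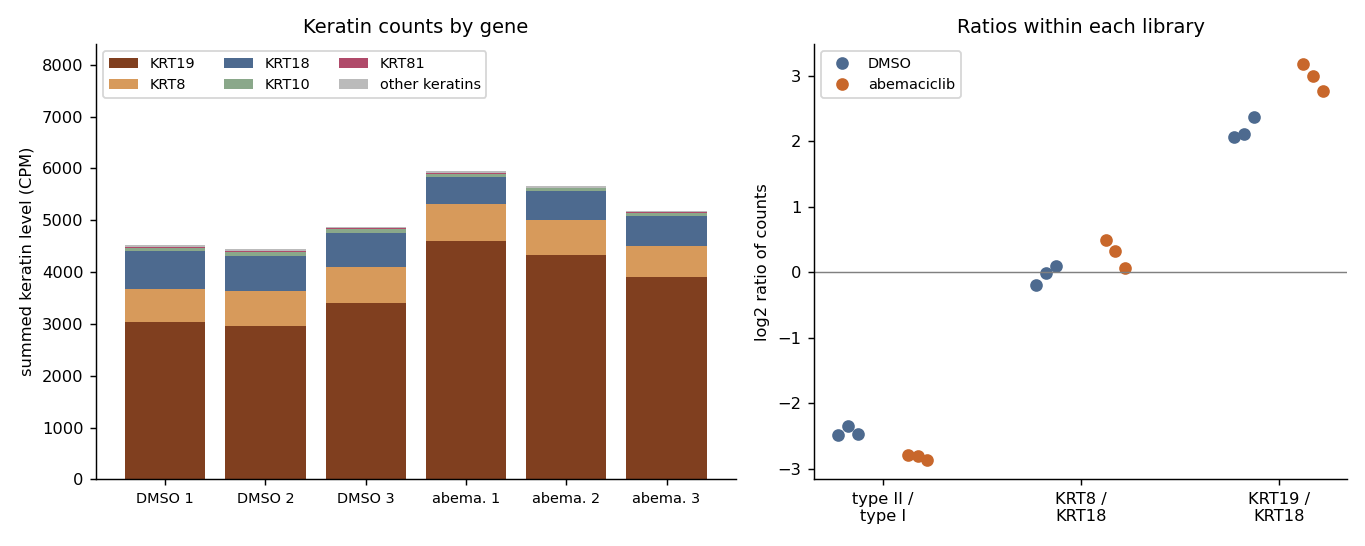
Left, summed level of all protein-coding keratins in CPM (y axis) in each library, split by gene; right, log2 ratio of counts (y axis) of type II over type I keratins, KRT8 over KRT18 and KRT19 over KRT18, with 1 point per library. The bars with abemaciclib are taller through KRT19, and the groups are apart for type II over type I and KRT19 over KRT18 but overlap for KRT8 over KRT18.

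KRT7, the type II keratin that joins KRT8 in ductal epithelium, was present at a far lower level than KRT8. It had 29, 45 and 15 counts with DMSO and 43, 42 and 36 with abemaciclib, or 8.77 ± 4.42 and 11.0 ± 1.74 CPM (SD, n = 3). The groups overlapped. Its log2 fold change of 0.32 had a standard error of 0.35 and ranged from 0.02 to 0.75 when single libraries were left out, so a change of either sign or none is within the error at this depth.

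KRT15 was near 0 without the drug. It had 1, 0 and 3 counts with DMSO and 58, 78 and 29 counts with abemaciclib, or 17.5, 19.2 and 7.84 CPM. All 3 abemaciclib libraries were above all DMSO libraries, although replicate 3 was well below the others. The ratio of summed counts, 165 against 4 after scaling, was 37.7, with an exact 95% interval from 14.5 to 140 that covers counting error only. That ratio was 102 (18 to 4.04e+03) without DMSO replicate 3, which left 1 count, and between 25.2 and 46.7 when any other library was left out, with 25.2 without DMSO replicate 2. The fitted log2 fold change of 5.11 (standard error 0.61) depends on the count added to zeros and is no bound. The start of KRT15 lies 1087 bases beyond the 3′ end of KRT19 on the same strand, and for 1000 counts of KRT19 there were 0.10, 0.00 and 0.27 counts of KRT15 with DMSO and 3.81, 4.44 and 2.01 with abemaciclib. KRT13, its neighbour on the other side and a type I keratin of the upper layers of moist stratified epithelium, had 1 count in each group.

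KRT10, the type I keratin of cells that leave the basal layer of the epidermis, had 63.5, 69.2 and 68.2 CPM with DMSO and 69.0, 62.7 and 65.4 CPM with abemaciclib. The ranges nearly coincided. A log2 fold change of −0.03 (standard error 0.13) turned to 0.01 without abemaciclib replicate 2. Its gene overlaps the antisense RNA KRT10-AS1 over 3514 bases, which had 66, 63 and 56 counts and then 94, 81 and 75. No exon of another gene lies over the last 500 bases of the KRT10 transcript. KRT80, a type II keratin found in many epithelia, had 45, 33 and 31 counts with DMSO and 25, 37 and 32 with abemaciclib. As CPM, the abemaciclib libraries (7.56 to 9.13) lay just under the DMSO libraries (9.39 to 13.1). The fold change on the log2 scale, −0.34, had a standard error of 0.32.

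KRT81 is a hair keratin of type II that is also transcribed in some breast cancer cells. It had 91, 105 and 114 counts with DMSO and 31, 29 and 37 with abemaciclib, or 30.7 ± 4.09 and 8.84 ± 1.49 CPM (SD, n = 3). The groups were far apart. The log2 fold change was −1.80 (standard error 0.24), a level 0.29 times that of the control, and it ranged from −1.90 to −1.66 under the alternatives. Its relatives were nearly silent, with 5, 8 and 4 and then 10, 0 and 5 counts for KRT86, and 1, 3 and 2 and then 0 for KRT83. KRT81 lies wholly inside the span of KRT86 on the opposite strand. With KRT81, KRT83 and KRT86 summed, the counts were 97, 116 and 120 against 41, 29 and 42, a log2 fold change of −1.69. The 94 genes of keratin-associated proteins, the matrix proteins of hair, had 0 counts in every library.

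The order of the levels, which carries the same limit for KRT18 and KRT8, differed between the groups. With DMSO it ran KRT19, KRT18, KRT8, KRT10, KRT81, KRT80, KRT7, KRT86, KRT15 and KRT13, and neighbours overlapped for KRT18 with KRT8, KRT80 with KRT7, and KRT15 with KRT13. With abemaciclib it ran KRT19, KRT8, KRT18, KRT10, KRT15, KRT7, KRT81, KRT80, KRT86 and KRT13. There KRT8 stood above KRT18 in non-overlapping ranges (597.4 to 717.0 against 509.8 to 573.9 CPM), and KRT15, KRT7, KRT81 and KRT80 overlapped from each to the next. KRT81 thus moved from the fifth to the seventh place and KRT15 from the ninth to the fifth. The other 45 keratin genes added 38 counts in total over the 6 libraries, with 38 of them at 0 throughout and none with enough counts for the fit.

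Genes whose pattern was most like that of a keratin were sought among 9739 genes of at least 5 CPM, by the root mean square difference of centred log2 levels over the 6 libraries. For KRT19 they were RAB25 (0.037), POLR2G and GABRA3 (0.040 each), against a median of 0.34 over all genes. RAB25, a small GTPase of epithelial vesicle transport, went from 135.4 to 187.5 CPM. For KRT18 they were USP7 (0.035), DENND1B (0.037) and PCBP1 (0.041), and for KRT8 they were GSPT1 (0.027), SSBP4 (0.037) and TLE5 (0.041). GSPT1, a translation termination factor, had means of 576.4 and 576.0 CPM. With 6 libraries of 1 experiment, such likeness is a description only.

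Keratin filaments are tied to desmosomes and hemidesmosomes, and the genes of these anchors were listed from general knowledge. Of 23 anchor and linker genes, 17 were tested, 6 were lower and 1 was higher with abemaciclib, with a median log2 fold change of 0.05. Over all genes tested, 13.3% were called lower and 12.5% higher, and these shares are the background of each list below as well. No list was tested as a set. The largest falls were in FBF1, a keratin-binding protein, at −1.73 on the log2 scale (standard error 0.48, adjusted P = 0.00786), in ITGB4, the integrin chain of hemidesmosomes, with −1.23 (0.24, adjusted P = 0.000251), and in DSC2, a desmosomal cadherin, with −0.97 (0.27, adjusted P = 0.00852). ITGB4 had 75, 132 and 109 counts with DMSO and 37, 53 and 58 with abemaciclib, without overlap. DSG2, TCHP and DSP also fell, named here after their values were seen. DSP encodes desmoplakin, the protein that holds the filaments at the desmosome, and had 971, 948 and 958 counts with DMSO and 642, 827 and 685 with abemaciclib, a log2 difference of −0.55 (0.10, adjusted P = 8.54e-05). The 1 gene called higher was PLEC, the cytolinker plectin (0.37, standard error 0.14, adjusted P = 0.0475). That call was lost with DESeq2, with total counts as scaling, with the replicate block, and without any library other than abemaciclib replicate 3.

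Of 15 genes of other intermediate filament classes, 5 were tested and 4 were lower, with a median of −1.08. LMNB1, a B-type lamin of the nuclear envelope, fell from 231.8 to 31.3 CPM, which is −2.89 on the log2 scale (standard error 0.12, adjusted P = 8.95e-17). The related LMNB2 fell from 114.9 to 54.4 CPM (−1.08, standard error 0.14, adjusted P = 9.79e-07). LMNA, the gene of lamins A and C, named after its values were seen, fell less (−0.40, standard error 0.11, adjusted P = 0.00762). PRPH, peripherin, fell by 1.36 on the log2 scale from 19, 27 and 26 counts to 14, 4 and 12 (standard error 0.49, adjusted P = 0.0425). DESeq2, the replicate block and leaving out DMSO replicate 1, 2 or 3 or abemaciclib replicate 2 each ended the PRPH call. VIM, vimentin, the filament protein of mesenchymal cells, had 0 counts in every library.

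Of 17 genes whose products bind, chaperone or cleave keratins, 16 were tested, 6 were lower and 2 were higher, with a median of −0.19. SFN, the epithelial 14-3-3 protein, fell from 266.1 to 102.9 CPM (−1.37 on the log2 scale, standard error 0.11, adjusted P = 1.42e-10). Among its relatives, YWHAH fell (−0.89, standard error 0.16, adjusted P = 7.09e-05), as did YWHAQ (−0.57, standard error 0.16, adjusted P = 0.0102), whereas YWHAG rose (0.43, standard error 0.11, adjusted P = 0.00515). DNAJB6, a chaperone that binds KRT18, rose from 30.1 to 53.2 CPM (0.82, standard error 0.18, adjusted P = 0.00116). Without abemaciclib replicate 1, and likewise without abemaciclib replicate 2, 3 genes in place of 6 were lower, since the calls of YWHAQ, YWHAE and PNN were lost.

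Of 19 transcription factors of epithelial and luminal cells, 16 were tested, 4 were higher and 5 were lower, with a median of 0.00. ESR1, the oestrogen receptor, had 741, 759 and 632 counts with DMSO and 1271, 1600 and 1259 with abemaciclib, a difference of 0.83 on the log2 scale (standard error 0.10, adjusted P = 2.92e-07). EHF, an epithelial ETS factor, rose (0.77, standard error 0.10, adjusted P = 5.86e-07), as did TFAP2C (0.44, standard error 0.10, adjusted P = 0.00243). The remaining call was TFAP2A (0.30, standard error 0.11, adjusted P = 0.0463), named after its values were seen. The number called higher was 3 with DESeq2, with total counts as scaling, with the replicate block, and without DMSO replicate 1, 2 or 3. KLF4 fell from 17.4 to 6.47 CPM (−1.42, standard error 0.30, adjusted P = 0.000667), SP1 fell (−0.59, standard error 0.14, adjusted P = 0.00158), and so did KLF5 (−0.57, standard error 0.17, adjusted P = 0.0144). The KLF5 call was lost without DMSO replicate 2 and without abemaciclib replicate 2. GATA3 and FOXA1, the factors most used to mark luminal cells, had log2 fold changes of 0.16 (standard error 0.09) and 0.07 (standard error 0.10) that did not pass the test. TP63, the master regulator of basal cells, was at 0 throughout.

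**Figure D4:**
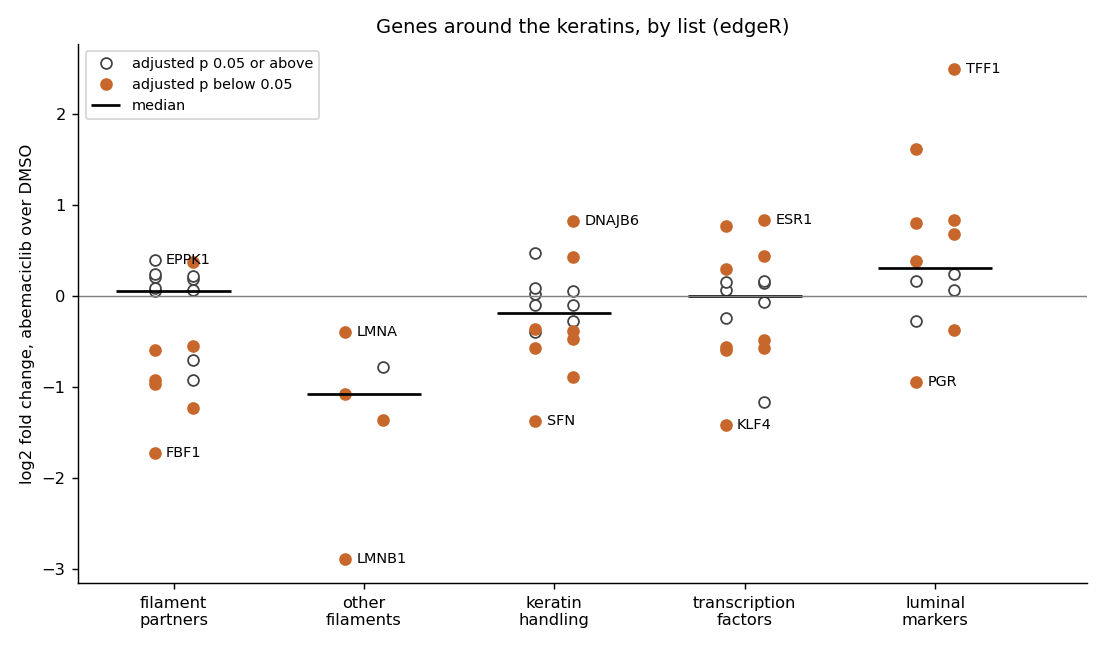
Log2 fold change of abemaciclib over DMSO (y axis) for each tested gene of the lists around the keratins and of the luminal markers. Filled points passed edgeR's test at an adjusted P under 0.05, and horizontal bars are medians. Called falls outnumber called rises among the filament partners, other filaments and keratin-handling genes, and LMNB1 lies lowest at −2.89. Over all genes tested, 13.3% were called lower and 12.5% higher, and no list was tested as a set.

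The 12 luminal markers, which hold no keratin, had 6 genes higher and 2 lower, with a median of 0.31. TFF1 and TFF3, secreted peptides of luminal cells, rose by log2 fold changes of 2.50 (standard error 0.09, adjusted P = 9.75e-19) and 1.62 (standard error 0.12, adjusted P = 1.42e-11). PGR, the progesterone receptor, fell from 103.1 to 53.3 CPM (−0.95, standard error 0.14, adjusted P = 4.04e-06), as did SPDEF (−0.37, standard error 0.11, adjusted P = 0.0119), a call lost without DMSO replicate 3 and without abemaciclib replicate 2. Of the basal markers, 2 of 12 were tested, and ACTA2, smooth muscle actin, fell from 21, 28 and 44 counts to 6, 2 and 6 (−2.82, standard error 0.53, adjusted P = 0.000191). Of 17 genes of the cornified envelope, the shell of the outermost epidermal cells, 14 were at 0 throughout and only CNFN was tested, at 34.2 and 42.2 CPM (0.30, standard error 0.16, adjusted P = 0.188). OXTR, the oxytocin receptor, did not pass the test (−0.54, standard error 0.38, adjusted P = 0.33). TAGLN, transgelin of smooth muscle, had 0, 1 and 5 counts with DMSO and 3, 16 and 7 with abemaciclib, and MYLK, a myosin kinase, had 4, 1 and 0 and then 0, 2 and 4, too few for the test; both are named after their values were seen. Any part of cells that carry such markers in the KRT15 counts was not tested.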

How the data were processed

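The 6 libraries, of parental ZR-75-1 cells, were grouped by the treatment named in their labels. Reads were trimmed by the authors, mapped to hg38 (STAR 2.7.5b) and counted by gene (featureCounts 2.0.1), and the deposited table holds the raw counts, neither normalized nor filtered. Strand use and the treatment of multiply mapped reads are not given in the sources used here. Identifiers were matched to GENCODE v44 on GRCh38 for 60401 genes, and 255 had no match. The study counted reads on an earlier GENCODE release. The exons, windows and overlaps described here come from v44 and not from the models that made the counts. RB1-knockout libraries were not analysed here.

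The test of abemaciclib against DMSO was the quasi-likelihood test of edgeR 4.0.16 in R 4.3.3 (genes kept by filterByExpr, TMM factors, Benjamini–Hochberg adjustment over 10863 genes, threshold 0.05). The same fit was also run on counts simulated from these data. The standard error is the log2 fold change divided by the square root of F. The biological coefficient of variation was 13.2%. Similar 3′ ends were sought as exact windows of 100 bases and with blastn. Alternatives were DESeq2 1.42.0, its size factors, total counts, no filter, at least 10 counts in every library, a replicate block, summed relatives and each library left out.

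The keratins and the gene lists were chosen with earlier results of these data known. Named were all 10 keratins, 6 basal keratins, from each list the called genes with the 3 largest rises and the 3 largest falls, and the 3 genes closest in pattern to KRT8, KRT18 and KRT19. Genes outside this rule are marked where they appear or were named for the cell type or relative they stand for.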

Additional observations from a re-analysis of the deposited data

How the results depend on the processing

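The sign was kept in 96 of 99 fold changes of keratins under an alternative, a description of values on which these genes were chosen. The other 3 were sign changes of values near 0, for KRT8 (0.02 without DMSO replicate 3, 0.06 without abemaciclib replicate 3, within a range of −0.06 to 0.06 over single libraries left out) and KRT10 (0.01 without abemaciclib replicate 2). KRT15 had too few counts for a value under the minimum of 10 counts in every library, which left 1 keratin called higher in place of 2, by the construction of that setting. Of 199 counts of called genes and ratios under an alternative, 187 stayed within 1.5 times or within 1 SD. Many of these could hardly move. The counts of the other keratins, of the cornified envelope genes and of other filaments called higher were 0 under every setting. The number of filament partners called higher, 1, was 0 with DESeq2, 0 with total counts only, 0 with the replicate block, and 0 to 2 when single libraries were left out. The number of keratin-handling genes called lower, 6, was 3 to 7 when single libraries were left out. The cause of these shifts was not tested.

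The labels do not say whether same-numbered libraries share more than the number. The correlations of their deviations were −0.07, 0.00 and −0.11 over 9739 genes, which cannot settle it with 3 libraries per group. With the replicate block, the log2 fold change of KRT15 was 5.05, and the block ended the calls of PLEC, PRPH and TFAP2A among the listed genes. At 3317860 to 4013156 counts per library, KRT7 and KRT80 had standard errors of 0.35 and 0.32, and nothing can be said of KRT13. For KRT86 the ratio of summed counts, abemaciclib to DMSO after scaling, was 0.807. Its exact 95% interval, from 0.375 to 1.72, covers counting error only. With 3 libraries of 1 experiment, a change particular to that experiment cannot be told apart from one of the drug.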
